A study of Mus musculus with 6 samples.

Results

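The genes through which a cell takes up, stores, breaks down, makes and senses serotonin were examined in retinal ganglion cells (RGCs), the projection neurons of the retina, on 6 mouse genome arrays. The genes were Slc6a4, Slc18a2, Slc18a1, Maoa, Maob, Htr1b, Htr1d, Htr2c, Tph1 and Ddc. Every probe set that the array annotation assigns to exactly 1 of these 10 genes was taken, which gave 18 of the 45037 probe sets on the arrays. Ipsilateral RGCs, which project without crossing at the optic chiasm, were compared with contralateral RGCs, which project across it. All cells came from wild-type C57BL/6J embryos at E16.5 (E16 in the sample records), labeled in an isolated head over 2 h with a rhodamine dextran placed on the cut optic tract and then purified by FACS. Each of 3 rounds pooled the retinas of 2 litters by side and gave 1 ipsilateral and 1 contralateral sample. Values are log2 intensities as deposited, and a difference is ipsilateral minus contralateral on the log2 scale.

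Serotonin is made from tryptophan by tryptophan hydroxylase (Tph1 outside the brain, Tph2 in brain neurons) and aromatic amino acid decarboxylase (Ddc). It is cleared from the extracellular space by the serotonin transporter SERT (Slc6a4), packed into vesicles by the vesicular monoamine transporters VMAT1 (Slc18a1) and VMAT2 (Slc18a2), and broken down by the monoamine oxidases Maoa and Maob. In the developing mouse brain some neurons that do not make serotonin take it up for a limited period, and RGCs of ventrotemporal retina, the source of the ipsilateral projection, are known among them for SERT. The receptor encoded by Htr1b couples to Gi/o proteins, which lower cyclic AMP, and is known on retinal axon terminals.

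The genes on which the results turn are the transporter Slc6a4, which was higher in ipsilateral RGCs of every round, and the vesicular transporter Slc18a2 and the receptor Htr1b, which were lower in ipsilateral RGCs of every round. Of the 36029 probe sets tested below, 16.7% were higher and 19.7% lower in ipsilateral RGCs of every round. Among the 9 tested probe sets of the serotonin genes, 6 were lower in every round, some of them at Maoa and Htr1d. So were 12 of 13 RGC markers. The promoters of Slc6a4, Slc18a2 and Htr1b are shown as the 250 bases before the start of each gene. They are from RefSeq on build GRCm38.p6, 5′ to 3′ on the strand of the gene. Slc6a4 lies on the plus strand at chr11:76998347-76998596, Slc18a2 on the plus strand at chr19:59260628-59260877 and Htr1b on the minus strand at chr9:81633833-81634082. Capitals mark each GGGCGG, the GC box, or its reverse complement CCGCCC.
Slc6a4: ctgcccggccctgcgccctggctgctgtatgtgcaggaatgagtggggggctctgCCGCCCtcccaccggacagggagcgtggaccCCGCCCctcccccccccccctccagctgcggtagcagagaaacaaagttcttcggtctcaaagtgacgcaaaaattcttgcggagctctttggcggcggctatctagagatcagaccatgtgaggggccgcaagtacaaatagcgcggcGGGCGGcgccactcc
Slc18a2: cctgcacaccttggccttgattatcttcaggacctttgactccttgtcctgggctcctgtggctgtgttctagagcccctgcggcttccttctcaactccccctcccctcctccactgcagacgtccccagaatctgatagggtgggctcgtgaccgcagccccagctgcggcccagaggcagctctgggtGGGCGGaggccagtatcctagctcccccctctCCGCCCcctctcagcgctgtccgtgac
Htr1b: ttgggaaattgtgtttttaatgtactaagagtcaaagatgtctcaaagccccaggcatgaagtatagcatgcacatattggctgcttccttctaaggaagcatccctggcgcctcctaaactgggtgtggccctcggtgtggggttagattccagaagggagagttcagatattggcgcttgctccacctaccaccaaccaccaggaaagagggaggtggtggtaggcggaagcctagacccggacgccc
The Slc6a4 window held 3 GC boxes, the Slc18a2 window held 2, and GGGCGG was not in the Htr1b window. Of 32851 promoter windows of the same length, 32.7% held GGGCGG on either strand. The letters CAGCAGG, a core bound by Zic factors, were on neither strand of these windows and in 8.44% of all windows. No match therefore overlapped another motif. Windows were found for 8 of the 10 genes, and none was found for Slc18a1 and Maob.

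The rounds differed more than the sides did. The array medians were 5.81, 6.70 and 6.33 in ipsilateral RGCs of rounds 1 to 3, against 5.80, 6.65 and 6.26 in contralateral RGCs. Over 36029 probe sets with a mean log2 level of at least 4.74, called the filter level, a median of 83.3% of the spread of the 6 values lay between rounds and 4.43% between sides. Of the listed RGC markers, 13 of 14 had a probe set of their own, all above the filter level, and no single-gene probe set was found for Pou4f2. Microglia and macrophage markers were higher in ipsilateral RGCs at 13 of 13 genes above the filter level, in all 3 rounds at 12, and 7 rose by the test below (C1qb, Csf1r, Ctss, Laptm5, C1qc, Tyrobp and Aif1, by 5.88 to 4.07). Their summed linear intensity ranged from 7839 to 12243 in ipsilateral and from 435 to 1086 in contralateral samples. Retinal progenitor markers were higher at 10 of 10 genes, and 2 rose (Sox2 by 2.68 and Sfrp2 by 2.29), against 0 with the samples of a round paired. Their sum ranged from 9593 to 22707 in ipsilateral and from 4232 to 4529 in contralateral samples. Endothelial cell and pericyte markers (9 of 12 above the filter level) had a median difference of −0.00, amacrine and horizontal cell markers (9 of 10) 0.20 and photoreceptor precursor markers (6 of 7) 1.03, and 0 of these passed. The largest differences of these lists were 1.02 for Kdr, 1.34 for Gad2 and 2.2 for Otx2. In pooled cells, a change in the share of a cell type and a change in RNA per cell cannot be told apart.

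Of the 10 serotonin genes, 5 were measured above the filter level, on 9 probe sets, and 5 lay below it on all of theirs, the other 9. Uptake (Slc6a4), vesicular storage by VMAT2 (Slc18a2), breakdown by monoamine oxidase A (Maoa) and the receptors Htr1b and Htr1d were above it, and both group means of each of these 9 probe sets were above it. The enzymes of synthesis Tph1 and Ddc, the vesicular transporter Slc18a1, monoamine oxidase B (Maob) and the receptor Htr2c were below it.

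SERT was the member with the largest difference. Slc6a4 had log2 levels of 9.71, 9.64 and 7.03 in ipsilateral RGCs of rounds 1, 2 and 3, against 6.94, 7.48 and 5.96 in contralateral RGCs. The ipsilateral sample was the higher one in each round, but the groups overlapped, since the ipsilateral sample of round 3 lay below the contralateral sample of round 2. Round 3 had the lowest Slc6a4 on both sides, although its arrays were not the dimmest. Relative to the median of its own array, Slc6a4 stood at 3.89, 2.94 and 0.70 in ipsilateral RGCs, against 1.15, 0.82 and −0.31 in contralateral RGCs. The means were 8.79 ± 1.53 in ipsilateral and 6.79 ± 0.77 in contralateral RGCs (SD, n = 3 each). The mean difference of 2.00 (SE 0.65, 95% interval 0.60 to 3.40) did not pass limma with Benjamini–Hochberg adjustment over the 36029 probe sets (adjusted p = 0.736), where a call is a change of at least 2-fold with an adjusted p under 0.05. With the samples of a round paired, called the replicate block, the interval narrowed to 1.17 to 2.83 and the adjusted p was 0.118. Without ipsilateral replicate 3 the difference was 2.88 and passed (limma adjusted p = 0.0474). That fit kept the contralateral array of round 3. With both arrays of round 3 left out the difference was 2.46 and did not pass (limma adjusted p = 0.529). Because Slc6a4 is in the list of genes that the study drew from these arrays, at this same probe set and with other software, its direction here is not independent evidence. Apart from the arrays, the study reported higher SERT in ipsilateral RGCs by quantitative PCR of sorted cells. It also showed SERT mRNA in ipsilateral RGCs of ventrotemporal retina by in situ hybridization.

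**Figure D1:**
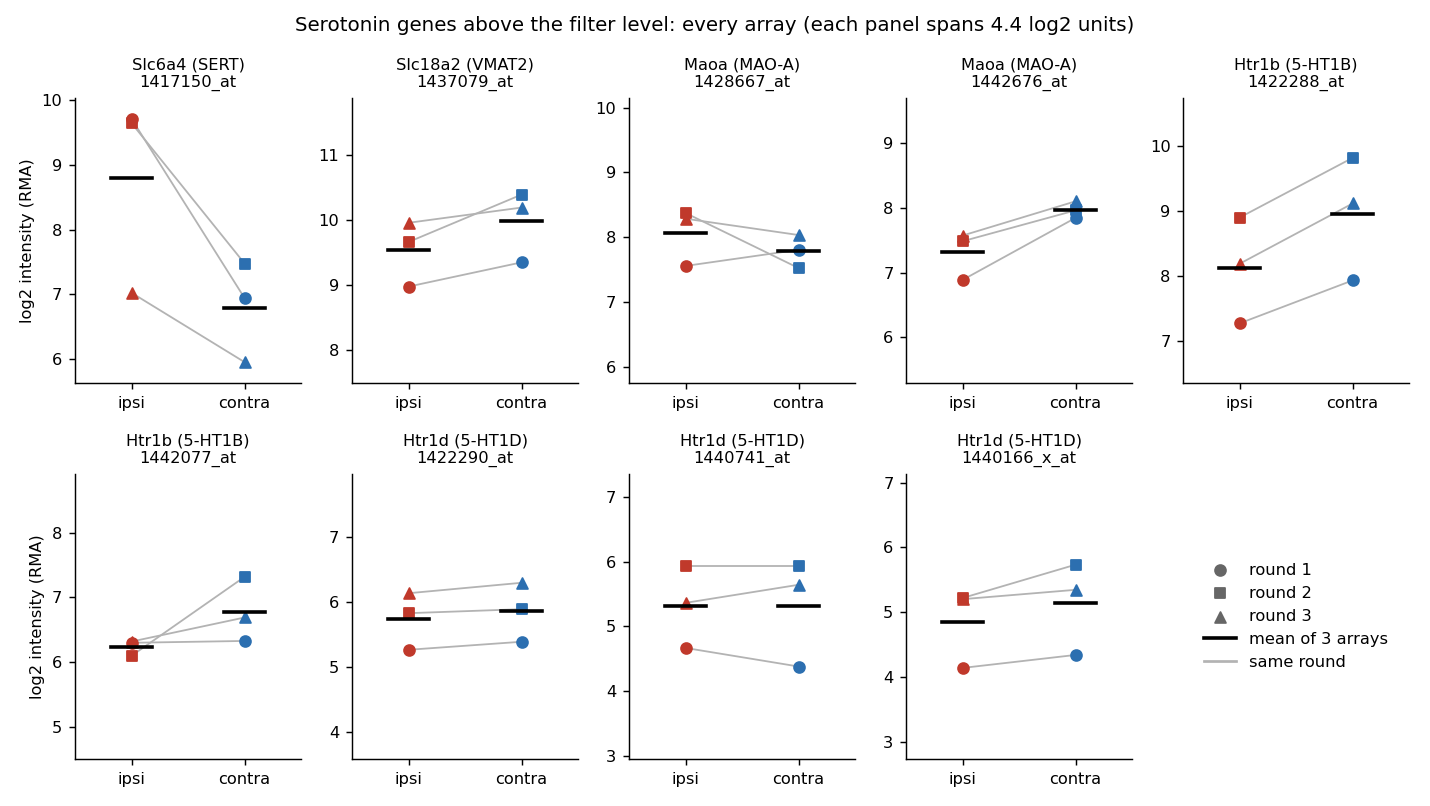
Log2 intensity (vertical axis) of the 9 serotonin gene probe sets above the filter level by side. Symbols stand for arrays, gray lines connect both sides of a round and black bars give the mean of 3 arrays. In each round Slc6a4 lies higher on the ipsilateral side while Slc18a2 and both Htr1b probe sets lie lower. Maoa 1442676_at and Htr1d 1422290_at and 1440166_x_at also lie lower in each round.

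Across rounds, the difference of Slc6a4 was largest in round 1 and that of Zic2 smallest there. Zic2, a zinc finger factor required for the ipsilateral projection, had differences of 1.59, 2.94 and 2.98 in rounds 1, 2 and 3, against 2.76, 2.16 and 1.07 for Slc6a4. The rounds had been chosen for high Zic2 in ipsilateral RGCs. The microglia and macrophage list had median differences of 4.35, 3.76 and 3.14 in the same rounds and the retinal progenitor list 1.04, 1.59 and 2.78, and their part in the Slc6a4 difference was not tested. Markers of mast cells and platelets, which hold serotonin, had median differences near 0. Mast cell markers (5 of 10 above the filter level) had a median difference of −0.00, with summed linear intensities of 365 to 726 in ipsilateral and 377 to 734 in contralateral samples, and Cpa3, Mcpt4, Tpsab1, Ms4a2 and Fcer1a were below the filter level. Platelet and megakaryocyte markers (6 of 7 above it, all but Ppbp) had a median of −0.03, with sums of 648 to 877 in ipsilateral and 562 to 1046 in contralateral samples. Of the platelet list, Pf4, a chemokine gene that macrophages also express, had differences of 1.41, 0.83 and 0.19 (mean 0.81, limma adjusted p = 1.0).

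**Figure D2:**
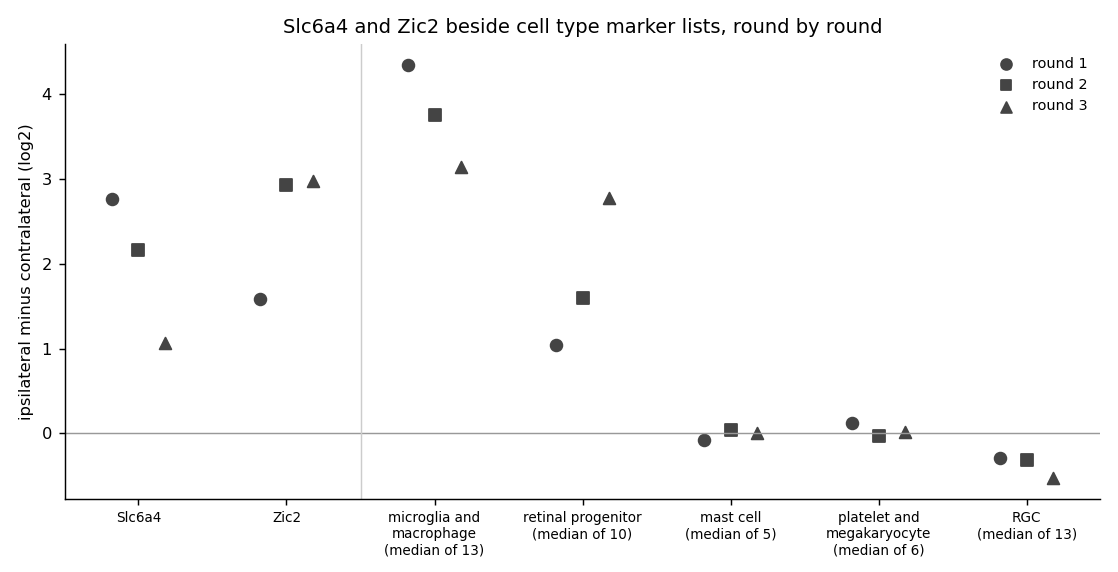
Difference between ipsilateral and contralateral RGCs on the log2 scale (vertical axis) in rounds 1 to 3 (symbols) for Slc6a4, Zic2 and the medians of 5 marker lists. Slc6a4 differed most in round 1 and Zic2 least, microglia and macrophage markers were above 3 in each round, and mast cell and platelet markers lay near 0.

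Among 28872 other probe sets above the filter level that name 1 gene, those whose 3 within-round differences came closest to the differences of Slc6a4 belonged to Arsb, Rasgrp3, Abca1, Csf1r and Fcgr3. Likeness was measured as the root mean square distance over the 3 rounds, which was 0.20 for Arsb, a lysosomal sulfatase gene, 0.21 for Rasgrp3, a Ras exchange factor gene, and 0.24 for Abca1, a cholesterol exporter gene. It was 0.25 for a probe set of Csf1r, which encodes a growth factor receptor of microglia (differences of 2.35, 2.24 and 0.99), and 0.27 for Fcgr3, an Fc receptor gene of myeloid cells (2.67, 2.54 and 0.82). The Csf1r probe set is not the brightest of that gene. None of the 5 closest probe sets passed limma without the block (adjusted p from 0.196 to 0.459) or with it (0.103 to 0.155).

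The vesicular transporter genes had smaller differences than Slc6a4. Slc18a2, the VMAT2 gene, had log2 levels of 8.97, 9.66 and 9.96 in ipsilateral RGCs, against 9.35, 10.39 and 10.19 in contralateral RGCs. The differences were −0.37, −0.73 and −0.24, so every ipsilateral sample lay below its contralateral partner, and the groups overlapped across rounds. On each array Slc18a2 lay between the 91.5th and 95.6th percentile of all probe sets. The mean difference was −0.45 (SE 0.44, 95% interval −1.40 to 0.50), with a limma adjusted p of 1.0. In the blocked fit the interval was −0.86 to −0.04 and the adjusted p 0.325. Slc18a1, the VMAT1 gene of endocrine cells, was below the filter level on all 3 of its probe sets, whose mean differences were −0.07, 0.07 and −0.05.

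Monoamine oxidase A, the mitochondrial enzyme that prefers serotonin, gave values that depended on the probe set. The brighter Maoa probe set, 1428667_at, had levels of 7.56, 8.37 and 8.29 in ipsilateral RGCs, against 7.81, 7.52 and 8.03 in contralateral RGCs, and its differences of −0.25, 0.85 and 0.25 had no common sign. The other, 1442676_at, had levels of 6.89, 7.48 and 7.57 in ipsilateral RGCs, against 7.85, 7.96 and 8.10 in contralateral RGCs. At that probe set all 3 ipsilateral samples lay below all 3 contralateral samples, and in each round its difference was lower than that of the brighter probe set. The mean differences were 0.28 (SE 0.41) and −0.65 (SE 0.39), each with a limma adjusted p of 1.0. With the replicate block the intervals were −0.31 to 0.88 and −1.07 to −0.24 (adjusted p = 0.662 and 0.210). The mean of both probe sets differed by −0.19, so no direction is given for the gene. Maob, the isoform typical of astrocytes and serotonergic neurons, had levels of 2.81, 3.54 and 4.67 in ipsilateral RGCs, against 3.11, 4.06 and 4.54 in contralateral RGCs. Each of these values was below the 20th percentile of its own array.

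Of the receptors, Htr1b differed most. At its brighter probe set, 1422288_at, the levels were 7.27, 8.90 and 8.19 in ipsilateral RGCs, against 7.94, 9.83 and 9.12 in contralateral RGCs. The differences of −0.66, −0.92 and −0.93 lay close together, while the rounds lay so far apart that the groups overlapped. The mean difference was −0.84 (SE 0.54, 95% interval −2.0 to 0.33), with a limma adjusted p of 1.0. In the blocked fit the SE was 0.15, the interval −1.21 to −0.47 and the adjusted p 0.131, so it did not pass there either. With 1 array left out the mean difference lay between −1.35, without contralateral replicate 1, and −0.41, without contralateral replicate 2. It was −0.41 without ipsilateral replicate 1 as well. At the second probe set, 1442077_at, the levels were 6.30, 6.10 and 6.32 in ipsilateral RGCs, against 6.33, 7.32 and 6.69 in contralateral RGCs. The groups did not overlap, but the highest ipsilateral and lowest contralateral value, 6.32 and 6.33, were nearly equal, and the mean difference of −0.54 was −0.20 with round 2 left out.

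Htr1d, a Gi/o-coupled receptor gene closely related to Htr1b, had smaller differences. Its brightest probe set, 1422290_at, had levels of 5.26, 5.83 and 6.13 in ipsilateral RGCs, against 5.38, 5.89 and 6.29 in contralateral RGCs. The differences within rounds were −0.12, −0.06 and −0.16. The mean difference was −0.12 (SE 0.42, 95% interval −1.03 to 0.79), and 0.10 without contralateral replicate 3 and 0.12 without ipsilateral replicate 1. In those fits the median difference of all probe sets tested also moved, to 0.05 and 0.22. With the replicate block the interval of 1422290_at was −0.46 to 0.23. The other probe sets differed by 0.00 (1440741_at) and −0.29 (1440166_x_at), and the _x_ in a probe set name marks probes that can also bind other transcripts. Each Htr1d probe set had a limma adjusted p of 1.0. Htr2c, which encodes a Gq-coupled receptor, was below the 20th percentile of its own array on every array at both of its probe sets.

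The synthesis genes were dim on both sides. Tph1 had levels of 3.42, 4.55 and 4.81 in ipsilateral RGCs, against 3.81, 4.32 and 4.77 in contralateral RGCs, and lay between the 10.4th and 16.3rd percentile of its arrays. Ddc, at its brighter probe set 1426215_at, had levels of 3.32, 4.73 and 5.67 in ipsilateral RGCs, against 3.02, 4.59 and 5.84 in contralateral RGCs. Its level followed the round on both sides, with 99.0% of its spread between rounds, and only the arrays of round 3 put it above their own 20th percentile. Of the 9 probe sets below the filter level, 7 were below the 20th percentile on all 6 arrays. Their mean differences ranged from −0.23 (Maob) to 0.14 (Htr2c), and in a fit of all 45037 probe sets the lowest unadjusted limma p among them was 0.679, or 0.236 with the replicate block. At such levels neither absence nor an equal level follows from an intensity.

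**Figure D3:**
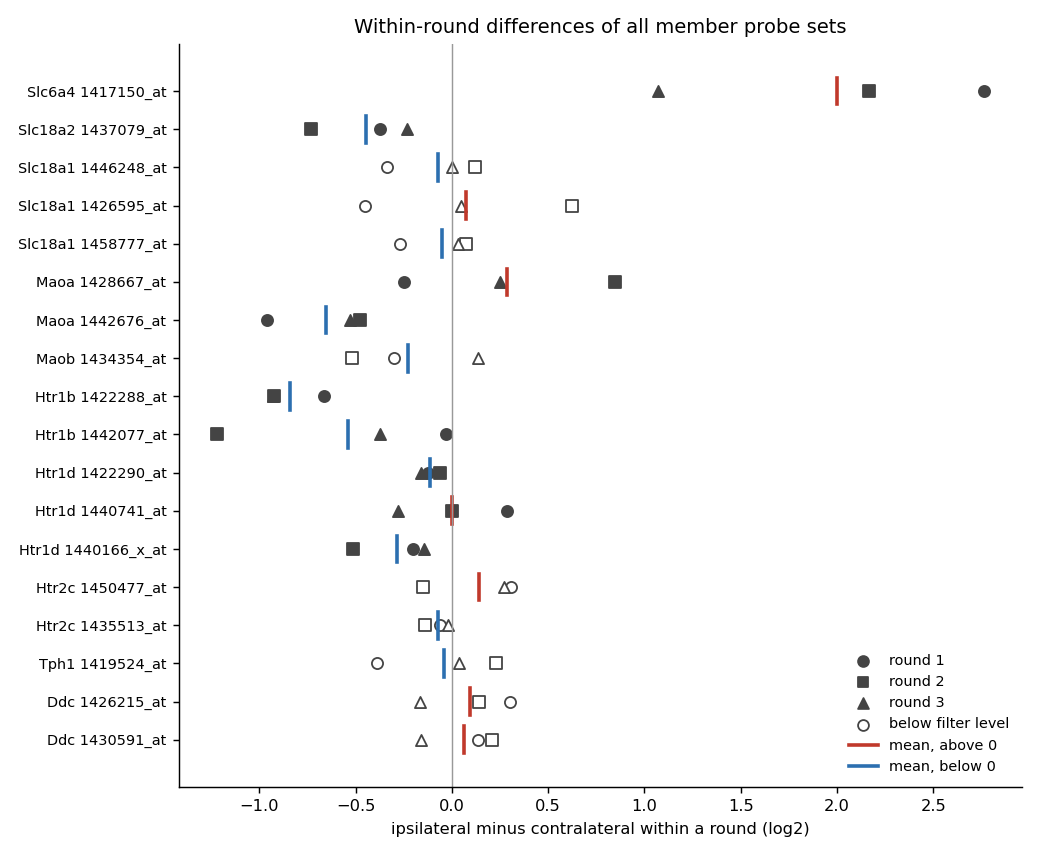
Ipsilateral minus contralateral log2 difference within each round (horizontal axis, symbols) for all 18 serotonin gene probe sets. Open symbols are probe sets below the filter level and colored bars are means, which range from −0.84 for Htr1b to 2.00 for Slc6a4, and apart from Slc6a4 no probe set lies above 0 in all 3 rounds.

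Over the 9 probe sets tested, limma called 0 higher and 0 lower in ipsilateral RGCs, against 0.244% of all probe sets called higher and 0% called lower. With the replicate block it also called 0, against 0.208% called higher and 0% called lower. At an unadjusted p under 0.05, 1 of the 9 passed without the block (Slc6a4), against 2.66% of all, and 4 with it (Slc6a4, Slc18a2, Htr1b at 1422288_at and Maoa at 1442676_at), against 14.0% of all. In all 3 rounds 1 of the 9 was higher and 6 were lower, where 16.7% and 19.7% of all probe sets were, and the 6 belong to Slc18a2, Maoa, Htr1b and Htr1d, of which Htr1b and Htr1d supply 2 each. Of all 18 probe sets, 1 was higher and 7 were lower in all 3 rounds, against 16.3% and 18.0% of the 45037. The groups did not overlap at 2 of the 9, against 5.29% of the probe sets tested. The median difference of the 9 was −0.29, and that of all probe sets −0.02. Of the spread of the 6 values, 50.5% lay between sides and 43.2% between rounds for Slc6a4, 67.5% and 25.2% for Maoa at 1442676_at, 25.0% and 74.5% for Htr1b at 1422288_at, and 21.0% and 74.4% for Slc18a2. Of the 3 Htr1d probe sets, the lowest share between rounds was 91.5%. Of the RGC markers, 12 of 13 were lower in all 3 rounds, and the median of the 13 was −0.45. The exception was Atoh7, a transcription factor gene of newborn RGCs and their progenitors, which was higher by 1.84, 1.63 and 2.64 (mean 2.04, SE 0.45, limma adjusted p = 0.130) and had the largest difference of the list. Slc17a6, the vesicular glutamate transporter gene of RGCs, differed by −0.92, and Thy1 by −0.83 (both limma adjusted p = 1.0). With rounds as blocks, limma gave an adjusted p of 0.165 for Slc17a6, 0.149 for Thy1 and 0.0653 for Atoh7. For the serotonin genes that fit gave 0.131 for Htr1b at 1422288_at, 0.325 for Slc18a2 and 0.118 for Slc6a4. The part of the lower RGC marker values in the lower Htr1b and Slc18a2 values was not tested.

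**Figure D4:**
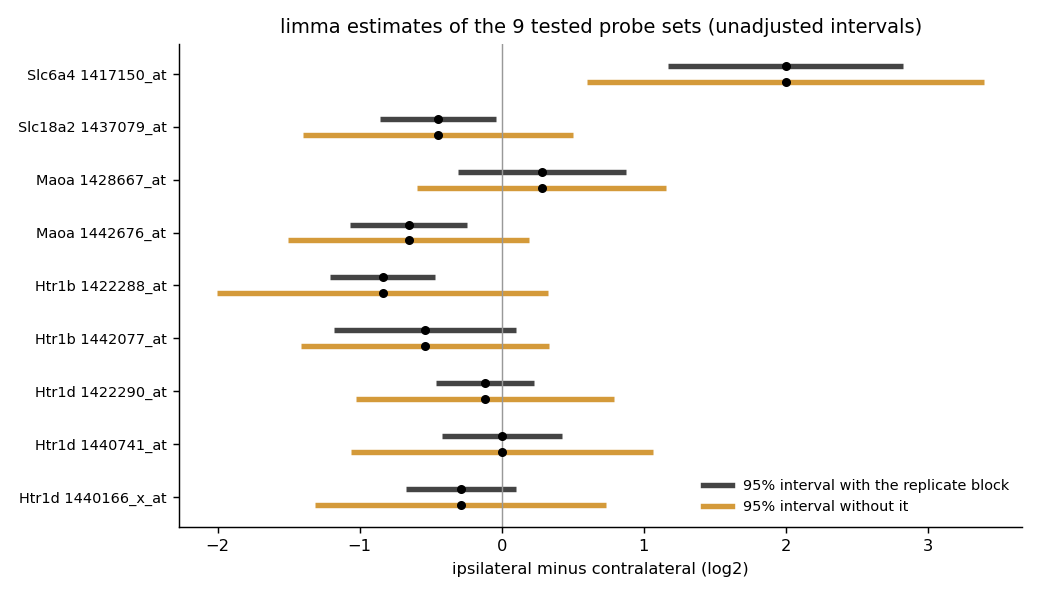
Estimated ipsilateral minus contralateral log2 difference (horizontal axis, points) of the 9 tested probe sets with unadjusted 95% intervals from limma, with the replicate block (gray) and without it (orange). Without the block the interval of Slc6a4 alone excludes 0, and with it those of Slc6a4, Slc18a2, Maoa 1442676_at and Htr1b 1422288_at do.

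The other genes of the pathway were compared in the same fit at the brightest probe set of each gene, and 0 of these passed in either direction, against 0.358% of 15346 genes called higher and 0% called lower. In all 3 rounds 17.6% of those genes were higher and 20.2% lower. The other serotonin receptors, 6 of 10 above the filter level, had a median difference of 0.03. Htr2b, a Gq-coupled receptor gene known in macrophages and microglia, had levels of 5.96, 6.86 and 5.96 in ipsilateral RGCs, against 4.75, 5.88 and 5.66 in contralateral RGCs (mean difference 0.83, SE 0.45, limma adjusted p = 1.0). Htr1a differed by 0.12, Htr3a by 0.06 and Htr6 by −0.06. Among 7 genes of monoamine synthesis and breakdown above the filter level the median was 0.06, with Aldh2, an aldehyde dehydrogenase gene of monoamine breakdown, at 0.27 and Th, the dopamine synthesis gene, at −0.23. Tph2 was below the filter level. The cofactor genes of tetrahydrobiopterin, which the hydroxylases need, had a median of 0.02 over 6 genes, with Pcbd2 at 0.31 and Qdpr at 0.22, and Gch1, the first enzyme of that synthesis, was below the filter level.

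Transporters other than the members had a median difference of −0.07 over 7 genes. Slc29a4, the plasma membrane monoamine transporter gene, which takes up serotonin with low affinity, was lower in all 3 rounds, by −0.39, −0.58 and −0.56 (mean −0.51, SE 0.44, limma adjusted p = 1.0 unblocked and 0.237 blocked). Downstream of the Gi/o-coupled receptors, 10 of 13 G protein and adenylate cyclase genes were lower on average and 5 were lower in all 3 rounds, with a median of −0.14. Gnai1 differed by −0.62, Gnao1 by −0.57 and Gnaz by −0.44, and Adcy7, a cyclase gene of blood cells and microglia, by 0.91. Adcy7 is in the study's list at another probe set. Of 11 partners and regulators of SERT above the filter level, Prkg1, a kinase gene, differed by 0.55, Mapk14 by 0.41, Vamp2 by −0.33 and Stx1a, a syntaxin gene, by −0.27, and the median was −0.16. Of the transcription factors of serotonergic neurons 4 were above the filter level, with a median of −0.08, of which Insm1 differed by 0.48, Lmx1b by −0.10, Foxa2 by −0.09 and Gata2 by −0.08.

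**Figure D5:**
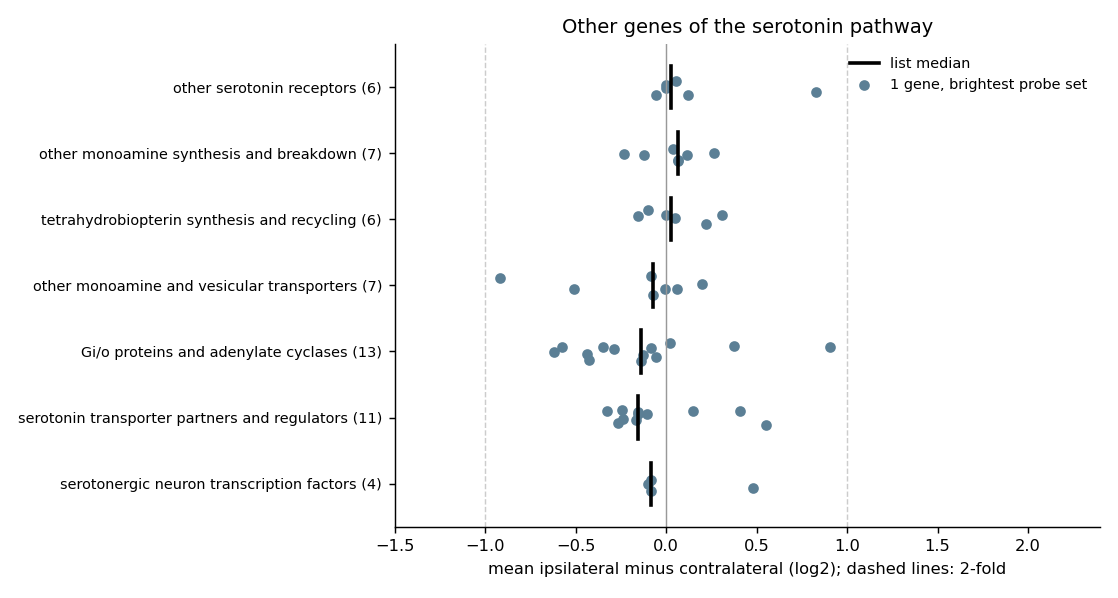
Mean ipsilateral minus contralateral log2 difference (horizontal axis) of the other pathway genes above the filter level, 1 point per gene at its brightest probe set, in 7 lists with the number of genes in parentheses. Black bars are list medians, which lie between −0.16 and 0.06, and no gene reached the dashed lines of a 2-fold change.

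Beside these, of 5 laterality markers Zic2 rose in ipsilateral RGCs (difference 2.50, SE 0.42, limma adjusted p = 0.0246 unblocked and 0.0739 blocked). The rounds had been chosen for high Zic2 in ipsilateral RGCs, so this rise is not independent evidence. Foxd1, a transcription factor of ventrotemporal retina, differed by 0.67, and Pou4f1 and Isl2, known for contralateral RGCs, by −0.45 and −0.57. Of the 5 markers, 3 were higher and 2 lower on average, with a median difference of 0.06. Pou4f1 is in the study's list, as higher in contralateral RGCs, at another probe set. At the brightest probe sets, and with the laterality markers set aside, Slc6a4 was the only serotonin or listed pathway gene above the filter level to differ by at least 2-fold. Of all probe sets tested, 2.32% were higher in ipsilateral RGCs by that much and 0.33% were lower.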

How the data were processed

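The authors hybridized amplified cDNA to Affymetrix mouse genome arrays, and the deposited values are log2 intensities made by the authors with RMA in Affymetrix Expression Console 1.1. Whether the 6 arrays were normalized together is not stated. Of 45101 probe sets 64 controls were left out, and 36029 with a mean at or above the 20th percentile (log2 4.74) were fitted with limma 3.58.1 in R 4.3.3 (lmFit, eBayes) with Benjamini–Hochberg adjustment, after a check on simulated data. Members, lists and alternatives were chosen with earlier results of these data known. The annotation gives 34945 probe sets a single gene, 932 more than 1 and 9160 no gene, and all 10 members matched the RefSeq gene table. The brightest probe set stands for a gene in counts. The rule for named genes took every called gene and the 4 largest differences of each pathway list, and at most 4 by largest difference of each marker list. Marker genes called or below the filter level are named beyond it, chosen after their values were seen. Replicate numbers pair the samples: the methods treat a round's sides together, and arrays of 1 number deviated together across probe sets (correlations 0.511, 0.541 and 0.612, against −0.353 to −0.207 for different numbers). Each side was centred on its own mean first, so the values for different numbers follow largely from those for the same number. At 3 arrays a side, exact permutation of a single gene reaches p = 0.10 at the lowest, and the number of arrays limits the precision.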

Additional observations from a re-analysis of the deposited data

How the results depend on the processing

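The Slc6a4 difference stayed above 0 under all alternatives run, between 1.22 (array weights) and 2.88 (without ipsilateral replicate 3), and from 1.54 to 2.88 with 1 array left out. It passed when p-values were adjusted among 2-fold probe sets only (2.00, limma adjusted p = 0.0195), which selects on the same difference. It also passed without ipsilateral replicate 3, but not with both arrays of round 3 left out. The member count of 0 became 1 only in the settings where Slc6a4 passed (0 to 1 with 1 array left out). The replicate block left that count at 0 and lost the call of Zic2. Of 131 alternative values of the other probe sets, 12 changed sign. Maoa at 1428667_at was −0.19 as the mean of both probe sets. Htr1d at 1440741_at was −0.24 with array weights, −0.042 with arrays centred on their medians, −0.075 with quantile normalization and −0.14 with round 1 left out, and from −0.47 to 0.33 with 1 array left out. Htr1d at 1422290_at ranged from −0.35 to 0.12 and at 1440166_x_at from −0.69 to 0.070 in those fits. The median difference of all probe sets tested moved between −0.25 and 0.22 in the same fits. Htr1b at 1422288_at reached a limma adjusted p of 0.0474 with array weights, at a difference of −0.93, under 2-fold. The weights were 5.67 for the ipsilateral and 6.12 for the contralateral array of round 3, against 0.28 to 0.66 for the other arrays. All values with array weights therefore rest mostly on round 3.

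Over the whole array the 88 probe sets called higher became 715 with adjustment over the 2-fold probe sets, 1001 with array weights (whose fit did not fully converge), 179 with an intensity trend and robust estimation, 53 to 220 with 1 array left out (omitting ipsilateral replicate 1 gave 220, ipsilateral replicate 3 gave 53 and contralateral replicate 3 gave 56), and 0, 14 and 25 with round 1, 2 or 3 left out, which leaves fewer samples. Those called lower became 80 and 148 in the first 2 of these. Leaving out rounds was chosen after seeing the data. The 1 call on the pathway and laterality lists, Zic2, became 6 with array weights and 0 with quantile normalization, the replicate block or any round left out, and 0 to 1 with 1 array left out (0 on omitting replicate 3 of either side). The cause was not tested. Probe sets near the filter level are limited by background.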
